A study of Sus scrofa with 48 samples.

Results

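The effect of diet on the pig liver transcriptome was considered over both lines of residual feed intake (RFI, the difference between the feed an animal eats and the feed predicted from its production needs). The members were chosen by the feed condition given for each sample, and all 48 of the 48 liver arrays of the series were used, 24 from pigs fed a high-fat high-fiber diet (HF) and 24 from pigs fed a low-fat low-fiber diet (LF). Each diet was fed ad libitum to 12 pigs of the low RFI line (RFIneg) and to 12 pigs of the high RFI line (RFIpl). The animals were purebred Large White barrows (castrated males) of lines selected in opposite directions, and 1 liver RNA per pig was labelled with Cy3 and hybridized alone on 1 array. Fat and fiber were raised together in HF, so that their effects cannot be told apart. In whole liver, a change in the number of cells of a type and a change in RNA per cell cannot be told apart either.

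The liver sets how dietary energy is stored and burned. When carbohydrate is plentiful, insulin and glucose raise the transcription factors SREBF1 and MLXIPL, which switch on the enzymes that build fatty acids from glucose. Dietary fat, and polyunsaturated fatty acids above all, dampens that program, and fatty acids are ligands of PPARA, the nuclear receptor that governs fatty acid oxidation. Fat digestion further depends on bile, which hepatocytes secrete as bile acids, phospholipid and cholesterol.

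Levels below are the log2 background-subtracted intensity of a probe minus the median log2 intensity of its array. The median intensity ranged from 56.2 to 126.4 in HF arrays and from 53 to 95.4 in LF arrays, in the units of the scanner, and the share of probes well above background ran from 65.8% to 77.2%. The 48 arrays lay on 6 slides with 2 arrays of each group on every slide, and slides were scanned on 2 days with 6 arrays of each group on each day. The hepatocyte markers albumin (ALB), transferrin (TF) and transthyretin (TTR) were well above background in all 24 HF and all 24 LF arrays, and their mean levels were 11.1, 10.4 and 10.3.

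HF arrays were on average brighter than LF arrays. The log2 median intensity was 6.32 ± 0.29 (SD, n = 24) in HF and 6.19 ± 0.21 (SD, n = 24) in LF, and the means differed by 0.13 (P = 0.0814, permutation test, 2-sided, 100000 resamples). After the mean of each slide was removed, the same difference had a P of 0.0065, and 19 of 24 HF arrays were above the median of LF. Slide 1 stood apart, with means of 6.82 in 4 HF arrays and 6.43 in 4 LF arrays, and the difference without it was 0.08 (2-sided permutation test, P = 0.184). At a given diet and line, 4972 of the 45236 tested probes (11%) varied with the brightness of the array at a P-BH of 5% (limma, P adjusted by Benjamini-Hochberg). Counts of probes, and the named rises and falls, are therefore also given with brightness as a covariate.

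**Figure D1:**
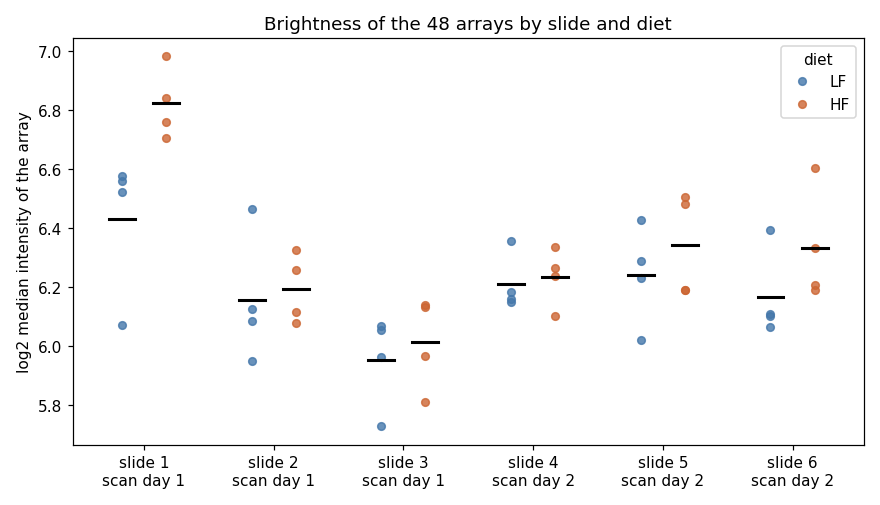
Log2 median intensity of each of the 48 arrays (vertical axis, log2 scanner units) by slide and scan day (horizontal axis), with LF in blue, HF in orange and the mean of each diet on a slide as a black bar. The HF mean lay above the LF mean on every slide, and the gap was widest on slide 1.

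SREBF1, SLC2A4 and PPP1R3C, which serve fatty acid synthesis and glucose use, fell with HF, as did ANGPTL4 and ACSL4, while FNDC1, CCL8, PIGR and ABCB4 rose. With line as a covariate, 222 of 45236 tested probes (0.491%) differed between diets at a P-BH of 5%, 122 being higher in HF (0.270%) and 100 lower in HF (0.221%). They carried 93 gene symbols, 54 for probes higher and 39 for probes lower in HF. At the cut-offs of the study's methods (P under 0.01 and FC over 1.1), 2121 probes (4.69%) were differentially expressed, with 953 higher (2.11%) and 1168 lower (2.58%) in HF. Changes were small, with a median FC of 1.29 among the 222 probes, of which 32 had an FC over 1.5 and 3 an FC over 2, all 3 lower in HF. In the text, "rose" and "fell" are used only for probes at a P-BH of 5%.

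The number at a P-BH of 5% depended on brightness and on single slides. With brightness as a covariate, 37 probes passed (0.0818%), 14 higher (0.0309%) and 23 lower (0.0508%) in HF, and 36 of them were among the 222. All 222 probes kept their direction with the covariate, 221 also met the methods' cut-offs, and the median of their log2 FC with the covariate over that without it was 0.95. At the methods' cut-offs, 1708 probes passed with the covariate. Of the 2121 that met these cut-offs without it, 1386 still met them in the same direction. When each slide in turn was left out, the number was 10, 8, 409, 15, 48 and 24 for slides 1 to 6. The 24 named genes, the 12 that rose most and the 12 that fell most, kept their direction with a P under 0.01 whichever slide was left out. Of these 24, between 2 and 22 kept a P-BH under 5%. A total of 7 probes passed without and with the covariate and without each slide, 8 fits in all: both SREBF1 probes with the largest falls, the SLC2A4 probe with the largest fall, 1 probe each of DOCK6 (log2 FC of -0.38) and CNRIP1 (log2 FC of 0.36), and 2 probes without a symbol. DOCK6 and CNRIP1 were singled out after their values were seen. The only other tested CNRIP1 probe differed in the opposite direction at P under 0.05 (limma). Of the 2 probes without a symbol, 1 (log2 FC of -0.41) is described in the scanner output as dedicator of cytokinesis protein 6, the product of DOCK6.

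The fall of smallest P among the 12 genes named for the largest falls was that of SREBF1, the sterol regulatory element binding transcription factor that drives fatty acid synthesis. At its probe of smallest P, levels in LF ran from 4.45 to 5.97 with a median of 5.18, and those in HF from 4.09 to 4.99 with a median of 4.59. All 24 HF pigs were below the LF median, although the groups overlapped, and 7 of them were below every LF pig. This gave a log2 FC of -0.56 ± 0.09 (SE; limma, P-BH = 0.000492), or 1.47-fold lower in HF. It was -0.52 in the low RFI line and -0.60 in the high RFI line, and -0.61 and -0.50 on the scan days.

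The fall was not shared by every SREBF1 probe. The 4 tested probes share no run of 20 or more bases, and are shown because a pair of them fell and a pair of them did not. Sequences are those of the scanner output, 5′ to 3′.
SREBF1 probe 1: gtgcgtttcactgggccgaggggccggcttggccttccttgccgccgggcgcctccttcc
SREBF1 probe 2: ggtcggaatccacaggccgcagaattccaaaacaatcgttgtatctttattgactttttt
SREBF1 probe 3: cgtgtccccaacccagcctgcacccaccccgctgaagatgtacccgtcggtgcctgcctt
SREBF1 probe 4: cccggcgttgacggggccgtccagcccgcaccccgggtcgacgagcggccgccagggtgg
Probes 1 and 2 gave a log2 FC of -0.56 and -0.65 (limma, P-BH = 0.000492 and 0.0014). Probes 3 and 4, which were the brighter pair with mean levels of 5.94 and 5.71, gave -0.12 and -0.13 (P-BH = 0.288 and 0.384). The name of probe 2 rests on a symbol of the scanner output, and those of the other probes on an accession. The position of each probe in the transcript was not determined here, since no genome was used.

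SLC2A4, the insulin-regulated glucose transporter known chiefly from muscle and fat, fell further. Levels at its probe 1 ran from 1.56 to 3.69 with a median of 2.46 in LF and from 0.55 to 3.21 with a median of 1.45 in HF. A total of 23 of 24 HF pigs were below the LF median and 15 were below every LF pig. The log2 FC was -0.97 ± 0.15 (SE; limma, P-BH = 0.000823), or 1.97-fold lower in HF.

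Probes 2 and 4 of SLC2A4 are the same 60 bases spotted under different names, shown in capitals to mark the shared run.
SLC2A4 probe 1: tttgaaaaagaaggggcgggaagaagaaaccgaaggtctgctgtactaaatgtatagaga
SLC2A4 probe 2: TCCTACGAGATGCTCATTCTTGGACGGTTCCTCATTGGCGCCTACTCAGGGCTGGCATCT
SLC2A4 probe 4: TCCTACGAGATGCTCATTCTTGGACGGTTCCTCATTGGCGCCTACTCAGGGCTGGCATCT
Probe 1 had a mean level of 2.03 and was much brighter than the others, whose mean levels were -2.79, -2.05 and -2.34. Their log2 FC were -0.47, -0.44 and -0.28, all lower in HF at P under 0.01, and among them probe 2 passed a P-BH of 5% (0.0455). Both spots of the shared sequence lay near the dim end of the array, and their log2 FC were not equal. Over 1456 pairs of tested probes with identical sequence, the median difference in log2 FC was 0.022 and the 95th percentile 0.18. Counted by sequence, the 222 probes are 213.

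ANGPTL4, a secreted inhibitor of lipoprotein lipase that is induced by fasting and by fatty acids, fell at all 5 of its probes. Levels at the probe of smallest P ran from 3.27 to 5.32 with a median of 4.62 in LF and from 3.0 to 4.65 with a median of 4.0 in HF. Of 24 HF pigs, 23 were below the LF median. The log2 FC was -0.64 ± 0.14 (SE; limma, P-BH = 0.0353), and over the 5 probes it ran from -0.64 to -0.51. With brightness as a covariate it was -0.65 (P-BH = 0.0601). Probes 2 and 4 share 57 bases, given in capitals, and the other 3 share no run of 20 or more bases, so that the fall was read at 4 separate stretches of sequence.
ANGPTL4 probe 1: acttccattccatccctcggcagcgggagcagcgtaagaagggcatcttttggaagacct
ANGPTL4 probe 2: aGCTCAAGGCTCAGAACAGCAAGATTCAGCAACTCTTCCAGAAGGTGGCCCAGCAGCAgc
ANGPTL4 probe 3: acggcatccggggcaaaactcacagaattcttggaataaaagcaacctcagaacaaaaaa
ANGPTL4 probe 4: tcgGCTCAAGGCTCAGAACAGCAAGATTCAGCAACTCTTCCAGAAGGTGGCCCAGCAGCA
ANGPTL4 probe 5: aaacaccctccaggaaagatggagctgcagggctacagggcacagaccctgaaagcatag

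ACSL4, the acyl-CoA synthetase that prefers arachidonic acid, had the largest log2 FC among named genes that fell. Levels ran from -1.44 to 2.65 with a median of 1.06 in LF and from -1.40 to 1.39 with a median of -0.28 in HF. The diets overlapped over most of their range, and the lowest value belonged to an LF pig, yet 23 of 24 HF pigs were below the LF median. The log2 FC was -1.17 ± 0.23 (SE; limma, P-BH = 0.019), or 2.24-fold lower in HF, and -1.12 with brightness as a covariate (P-BH = 0.0413). All 9 ACSL4 probes met the methods' cut-offs, with log2 FC between -1.17 and -0.51, and 1 passed a P-BH of 5%.

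**Figure D2:**
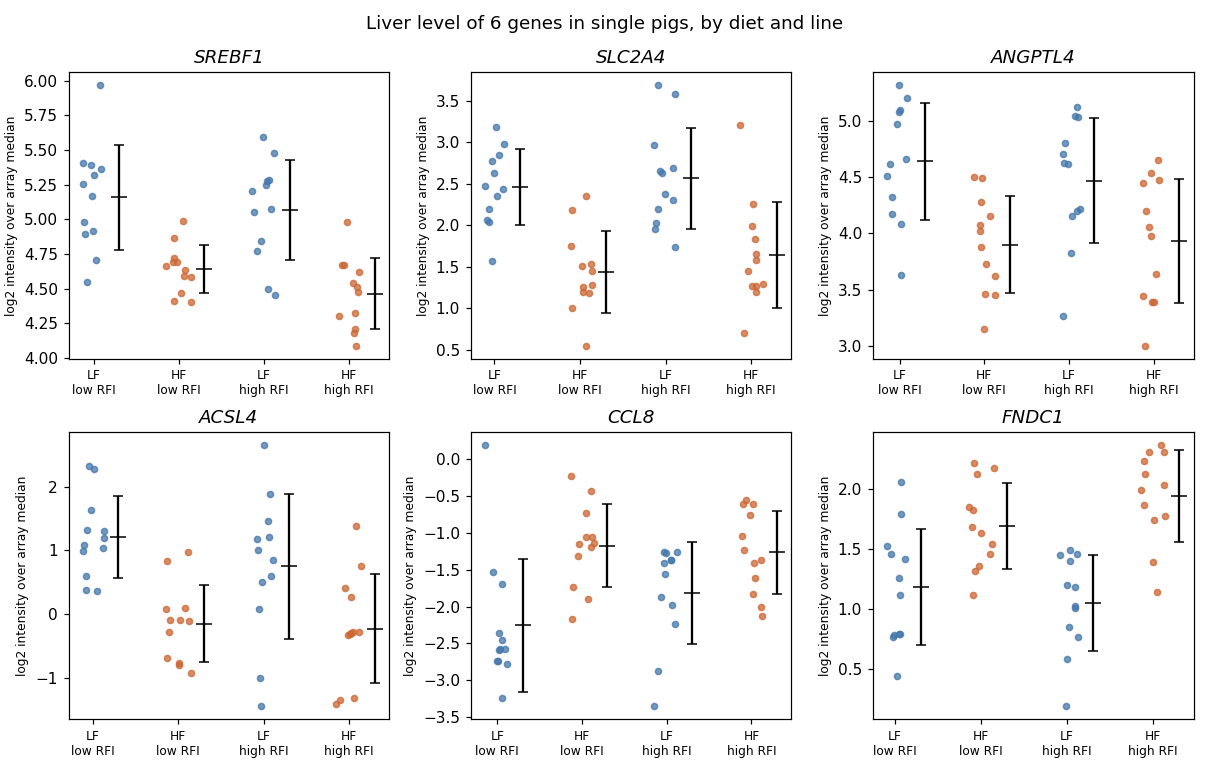
Level of 6 genes (vertical axes, log2 intensity over the array median, probe of smallest P) in single pigs (points) by diet and line, with LF in blue and HF in orange, and the mean ± SD of each group of 12 in black. SREBF1, SLC2A4, ANGPTL4 and ACSL4 were lower and CCL8 and FNDC1 higher in HF in both lines, with overlap between diets in every panel.

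Another gene that fell serves the storage of glucose. PPP1R3C, a subunit that directs protein phosphatase to glycogen, ran from 1.07 to 2.85 with a median of 2.20 in LF and from 1.04 to 2.36 with a median of 1.51 in HF. A total of 22 of 24 HF pigs were below the LF median. It fell by 0.51 on the log2 scale (limma, P-BH = 0.0371), and its 3 probes all met the methods' cut-offs.

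Among the remaining falls, LEAP2, a liver peptide that antagonizes the ghrelin receptor, ran from 1.87 to 3.78 with a median of 2.88 in LF and from 1.61 to 3.03 with a median of 2.29 in HF. Both of its probes fell, with log2 FC of -0.56 and -0.50 (limma, P-BH = 0.0294 for each). AGXT2L1, now called ETNPPL, which breaks down phosphoethanolamine, fell by 0.81 on the log2 scale, with 10 of 24 HF pigs below every LF pig (P-BH = 0.0159). HFE2 or hemojuvelin, the co-receptor through which the liver regulates hepcidin, fell by 0.43 (P-BH = 0.0372), and SULT1E1, the estrogen sulfotransferase, by 0.49 (P-BH = 0.0372). SNCG or gamma-synuclein fell by 0.74 (P-BH = 0.0294) and LONRF1 by 0.46 (P-BH = 0.036). With brightness as a covariate, LEAP2, AGXT2L1 and SNCG kept a P-BH under 5% (0.0346, 0.0198 and 0.0413), and PPP1R3C, HFE2, SULT1E1 and LONRF1 did not (0.0609 to 0.0927).

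Among the 12 genes with the largest rise, FNDC1, a fibronectin domain protein, had the smallest P. Its levels ran from 0.19 to 2.06 with a median of 1.15 in LF and from 1.12 to 2.36 with a median of 1.83 in HF, and 8 of 24 HF pigs were above every LF pig. Its log2 FC was 0.70 ± 0.12 (SE; limma, P-BH = 0.00201), and 0.67 with brightness as a covariate (P-BH = 0.00873). A single FNDC1 probe was tested.

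CCL8, a chemokine that attracts monocytes and lymphocytes, ran from -3.35 to 0.19 with a median of -2.11 in LF and from -2.17 to -0.22 with a median of -1.17 in HF. The highest value belonged to 1 LF pig, while 22 of 24 HF pigs were above the LF median. The log2 FC was 0.82 ± 0.20 (SE; limma, P-BH = 0.0396), or 1.77-fold higher in HF, and its other probe gave 0.56 (P-BH = 0.165). The log2 FC was 1.08 in the low RFI line and 0.56 in the high RFI line, a difference that was not significant (limma, interaction P = 0.183). With brightness as a covariate it was 0.73 (P-BH = 0.0982).

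PIGR, the receptor that carries polymeric immunoglobulins across epithelium into bile, rose by a log2 FC of 0.61 (P-BH = 0.0471), and its 3 probes, of which a pair has the same sequence, gave 0.57 to 0.61. IL7, a growth factor of lymphocytes, rose by 0.52 (P-BH = 0.0294), with a second probe at 0.37 (P-BH = 0.0374), while 1 of its 4 probes gave -0.07. The kinase PIM1 rose by 0.52 (P-BH = 0.0422) at 1 of 3 probes. The log2 FC of PIGR, IL7 and PIM1 with brightness as a covariate were 0.52, 0.46 and 0.53 (P-BH = 0.12, 0.0667 and 0.0734). The list of chemokines and their receptors counts CXCR7 and ACKR3, an older and a current name of the same gene, as separate entries. Read at the brightest probe of each entry, 25 of 45 were higher and 20 lower in HF (median log2 FC of 0.02). At the methods' cut-offs, 1 was higher and 2 were lower. In the list of cytokine and NF-kappaB signalling, 20 of 31 were higher and 11 lower (median of 0.04), with 1 higher and 0 lower at the cut-offs.

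Several rises rested on a single probe out of several. The DPYS probe with a log2 FC of 0.97 (P-BH = 0.048) was well above background in 22 HF and 13 LF arrays, whereas the 3 brighter probes of this pyrimidine-degrading enzyme gave -0.10 to -0.05. GRB7, a signalling adaptor, rose by 0.84 (P-BH = 0.0455) at 1 probe and gave 0.14 and -0.05 at the others. The COL11A1 probe (log2 FC of 0.63, P-BH = 0.0487, and -0.013 with normexp background correction) was well above background in 16 HF and 8 LF arrays, and the other probes of this collagen gave -0.16 and 0.00. MCC (0.86), PTCHD2 (0.90), CKAP2L (0.70) and FAM212B (0.55) completed the 12 genes, and the other FAM212B probes gave 0.86 (P-BH = 0.0541) and, at the brightest, -0.01. Of the 12, FNDC1 and MCC kept a P-BH under 5% with brightness as a covariate (0.00873 and 0.0413), and the other 10 did not (0.0667 to 0.12). The other tested MCC probe had the same direction but not a P under 0.05 (limma).

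Probes for 1 gene share the same 48 pigs, so that their agreement speaks to the probes and not to the number of animals. Of the 93 genes with a probe at a P-BH of 5%, 66 had another tested probe of different sequence. Of these 180 other probes, 166 had the same direction and 128 also a P under 0.05, against 14.6% of all tested probes in either direction. In 32 genes every other probe did so and in 14 genes none did.

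The genes with the most probes at a P-BH of 5% were, beside ANGPTL4, all higher in HF. LMO4, a LIM domain regulator of transcription, rose at 5 of 7 probes, with log2 FC of 0.26 to 0.31. P4HA1, the prolyl hydroxylase of collagen, rose at 4 of 9 probes (0.32 to 0.43). The fucosidase FUCA2 rose at 4 of 4 probes (0.31 to 0.34) and gamma-glutamyl hydrolase GGH, which cleaves folate polyglutamates, at 3 of 7 (0.32 to 0.33). The tight junction protein occludin (OCLN) rose at 3 of 5 probes (0.26 to 0.42) and CD247, the zeta chain of the T cell receptor, at 3 of 3 (0.40 to 0.46). A total of 2 of the 5 LMO4 probes and 1 of the 3 CD247 probes kept a P-BH under 5% with brightness as a covariate, and 0 of those of P4HA1, FUCA2, GGH and OCLN did (0.0601 to 0.118). These 6 genes were singled out after their values were seen.

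**Figure D3:**
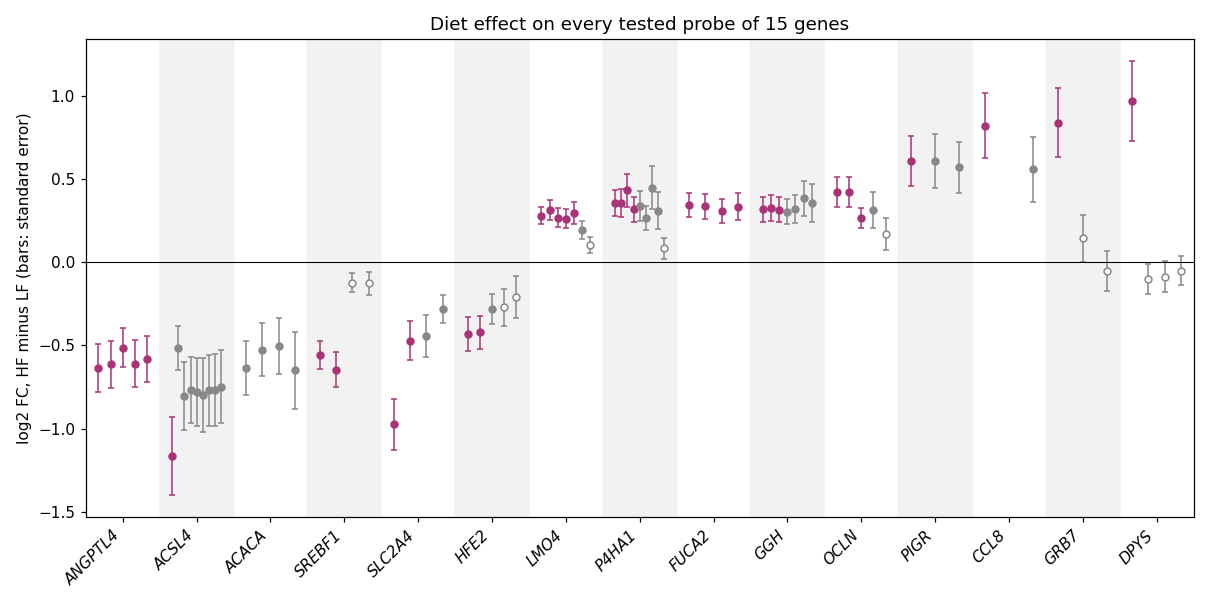
Log2 FC (HF minus LF, vertical axis) with its standard error for every tested probe of each gene on the horizontal axis, in purple at a P-BH of 5%, filled at P under 0.01 and open otherwise, and ordered by P within a gene. The ANGPTL4 probes lay between -0.64 and -0.51, whereas SREBF1, GRB7 and DPYS each had probes near 0.

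Gene lists were then described with 1 probe per gene, that of highest mean intensity, for 11119 genes. At the methods' cut-offs, 2.11% of these genes were higher and 2.21% lower in HF, and at a P-BH of 5%, 0.342% and 0.234%. The median log2 FC of all these genes was -0.02, and 55.7% were lower in HF.

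In de novo lipogenesis, 11 of 13 tested genes were lower in HF, with a median log2 FC of -0.14, and 1 met the methods' cut-offs. That gene was ACACA, the acetyl-CoA carboxylase that commits carbon to fatty acids (log2 FC of -0.50, P = 0.00408), for which all 4 probes did so. Levels of SCD, the stearoyl-CoA desaturase, ran from 6.16 to 9.59 in LF and from 5.75 to 9.06 in HF, a log2 FC of -0.56 (P = 0.0234), and its 11 probes gave -0.62 to -0.56. For FASN, fatty acid synthase, the log2 FC was -0.47 (P = 0.059), and for ELOVL6 and ME1 it was -0.14 and 0.15 (P = 0.543 and 0.453). None of these passed a P-BH of 5%, and the list count does not hold the fall of SREBF1, whose brightest probe gave -0.12.

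In polyunsaturated fatty acid synthesis, 4 of 8 genes were higher and 4 lower in HF (median log2 FC of 0.11), with 2 higher and 1 lower at the methods' cut-offs. The lower gene was ACSL4, and the higher genes were FADS2 and FADS6. FADS2, the first desaturase of that pathway, gave a log2 FC of 0.47 (P = 0.00704, P-BH = 0.172), with both of its probes at the methods' cut-offs. FADS6 gave 0.30 (P = 0.00579), FADS1 0.46 (P = 0.0178), with 0.09 at its dim second probe (P = 0.587), and the elongase ELOVL2 1.12 (P = 0.0255). For FADS1 and FADS2 the log2 FC was 0.18 and 0.14 in the low RFI line and 0.75 and 0.80 in the high RFI line. Neither difference between lines was significant (limma, interaction P = 0.13 and 0.0458, P-BH of 1.0 for both).

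In glucose metabolism, 22 of 29 genes were lower in HF (median log2 FC of -0.07), and 0 met the methods' cut-offs as higher and 4 as lower. They included PPP1R3C, whose brightest probe gave -0.41 (P = 0.000439), and GCKR (-0.22, P = 0.00311). PCK1, the key enzyme of gluconeogenesis, gave 0.49 (P = 0.0895).

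Amino acid breakdown and the urea cycle had 28 of 31 genes lower in HF, with a median log2 FC of -0.14, and 3 at the methods' cut-offs. HPD, which degrades tyrosine, ran from 4.46 to 5.34 with a median of 5.01 in LF and from 3.95 to 5.37 with a median of 4.64 in HF. It fell by 0.37 on the log2 scale (P-BH = 0.0372, limma), with 23 of 24 HF pigs below the LF median, and gave -0.32 with brightness as a covariate (P-BH = 0.0972). The glycine decarboxylase GLDC gave -0.35 (P = 0.000706) and the serine dehydratase-like enzyme SDSL -0.24 (P = 0.00336). The lower direction held for 25 to 28 of the 31 genes under other scalings. In methyl and choline metabolism, 14 of 16 genes were lower (median of -0.10) and 0 met either cut-off. AGXT2L1 (ETNPPL), which belongs to this list and fell as described above, stood on the array under its older symbol and was not counted among these 16.

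In bile acid synthesis and transport, 12 of 17 genes were higher in HF (median of 0.08), and 2 met the methods' cut-offs. ABCB4, the canalicular pump for phospholipid, ran from 1.18 to 2.59 with a median of 1.66 in LF and from 1.74 to 3.08 with a median of 2.20 in HF. All 24 HF pigs were above the LF median, and it rose by a log2 FC of 0.44 ± 0.10 (SE; limma, P-BH = 0.0312), with 0.42 under the brightness covariate (P-BH = 0.0667). Its log2 FC was 0.18 in the low RFI line and 0.70 in the high RFI line (limma, interaction P = 0.00517, P-BH = 1.0). NR1H4, the bile acid receptor FXR, gave 0.16 (P = 0.00587). CYP7A1, the rate-limiting enzyme of bile acid synthesis, gave 0.44 (P = 0.154), with LF levels from 0.27 to 5.13 and HF levels from 1.96 to 5.47.

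Fatty acid oxidation and ketogenesis had 20 of 28 genes lower and 8 higher, with a median log2 FC of -0.03, and with normexp background correction the split was 15 lower and 13 higher. PPARA itself gave 0.40 (P = 0.00362, P-BH = 0.135), with 22 of 24 HF pigs above the LF median, but 2 of its 4 probes gave 0.02 and -0.01. CPT1A, which admits long-chain fatty acids to mitochondria, gave 0.25 (P = 0.241). Of 12 fasting-induced genes, 5 were higher and 7 lower in HF (median of -0.04), against 7 higher and a median of 0.01 with the deposited values, and 1 met the methods' cut-offs. That gene was ANGPTL4, which fell, while PDK4 gave -0.34 (P = 0.0117) and FGF21 -0.07 (P = 0.822), and PCK1, described above, was the highest at 0.49.

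Cholesterol synthesis had 17 of 23 genes higher in HF (median of 0.08), with 1 gene higher and 1 lower at the methods' cut-offs. The lower gene was SCAP, the chaperone of SREBF proteins (-0.16, P = 0.00768), and HMGCS1 gave 0.23 (P = 0.462). In triglyceride storage, 16 of 20 genes were lower (median of -0.05), and the 2 at the methods' cut-offs were higher, PNPLA2, the adipose triglyceride lipase (0.33, P = 0.000876), and HSD17B11 (0.15, P = 0.00754). Once brightness was a covariate, 1 was higher and 1 lower at these cut-offs, the lower being CIDEC (-0.36, P = 0.00726). Among apolipoproteins and lipoprotein genes, 9 of 21 were higher and 12 lower (median of -0.01). At the methods' cut-offs, APOM was higher (0.18, P = 0.00417) and ABCA1 and APOC2 lower (-0.21 and -0.16, P = 0.00419 and 0.00471). This list had 1 gene higher and 1 lower at these cut-offs with brightness as a covariate, and 1 higher and 0 lower with normexp.

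**Figure D4:**
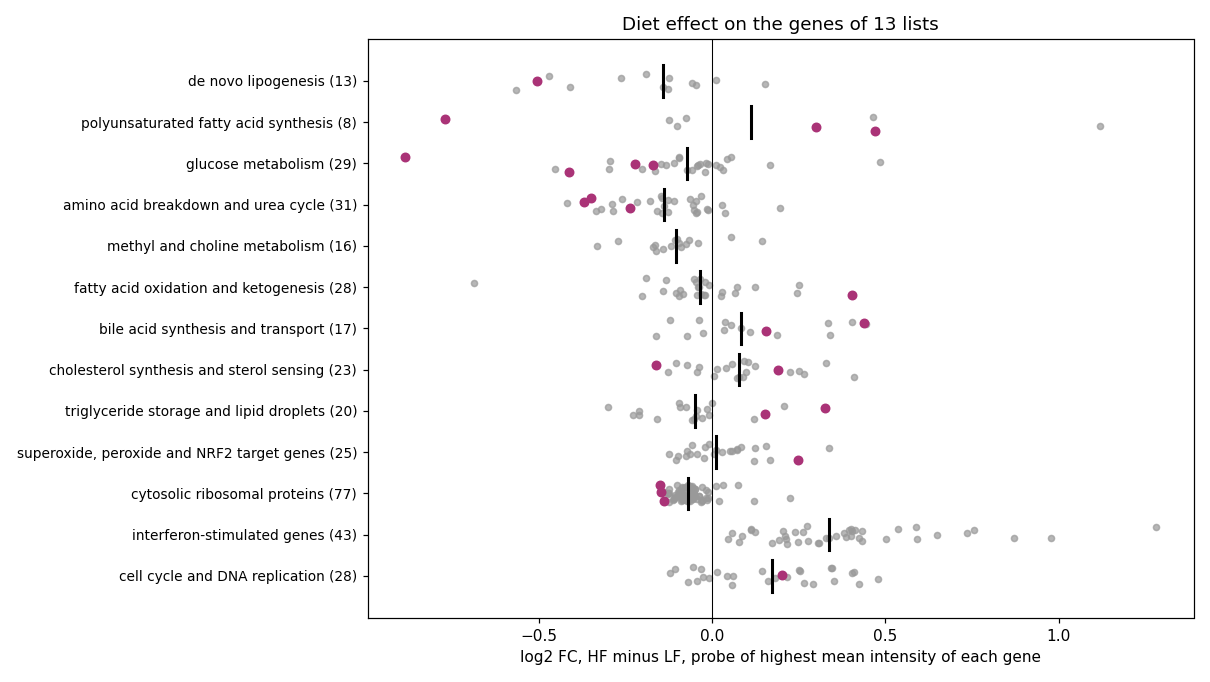
Log2 FC (HF minus LF, horizontal axis) of each gene of the lists on the vertical axis, with the number of genes tested in parentheses, genes at P under 0.01 and FC over 1.1 in purple, other genes in grey and the list median as a black bar. De novo lipogenesis and amino acid breakdown lay mostly left of 0, with medians of -0.14, and interferon-stimulated genes right of 0 with a median of 0.34 and no gene at the cut-offs.

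Among lists of defence and growth, all 43 interferon-stimulated genes were higher in HF, with a median log2 FC of 0.34, but 0 met either cut-off. Their mean level differed by 0.38 between diets against an SD of 0.82 between pigs of a group, and all genes were read in the same pigs. Cell cycle genes had a median of 0.17, with 20 of 28 higher, against 0.04 with normexp (18 higher) and 0.06 with the deposited values (15 of 24 higher), and 1 of the 28 met the methods' cut-offs, CDK2 (0.20, P = 0.00588). NFE2L2, the transcription factor NRF2, had a probe that rose by 0.28 (P-BH = 0.0371, and 0.0769 with brightness as a covariate) and a brightest probe at 0.25 (P = 0.000673), and 1 of the 25 genes of its list met the cut-offs. Of 77 cytosolic ribosomal protein genes 71 were lower in HF, with a median of -0.07 and 3 at the cut-offs, and the median was -0.03 after quantile normalization. At the cut-offs, 1 was lower with brightness as a covariate and 1 after quantile normalization. With normexp, and likewise with the deposited values, 1 was higher and 0 were lower.

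Markers of cell types were examined beside these lists. Of 7 hepatocyte markers 7 were lower in HF, with a median of -0.09, but under quantile normalization 5 were higher, and 0 met the cut-offs. All 7 cholangiocyte markers were higher, with a median of 0.22, and 0 met the cut-offs for 1 probe per gene, while 6 of their 35 probes did, and with normexp 6 of the 7 genes were higher. Their mean level ran from -1.48 to -0.22 in LF with a median of -0.77 and from -1.19 to 0.11 in HF with a median of -0.55, and the defining keratin KRT19 gave 0.11 (P = 0.464). Their part in the higher PIGR and OCLN, which bile duct cells also express, was not tested. All 6 erythroid markers were lower, with a median of -0.26, and 0 met the cut-offs, the beta globin HBB giving -0.57 (P = 0.0101). Their median was -0.28 with brightness as a covariate and 3 of the 6 met them, against -0.16 and 1 with normexp and -0.15 and 0 with the deposited values. Of 15 T and NK cell markers 7 were higher and 8 lower, and 0 met the cut-offs, beside the higher CD247. Macrophage markers had a median of 0.10, with 8 of 11 higher and 0 at the cut-offs.

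Both lines could be read as separate groups of pigs, but their arrays lay on the same slides. HF arrays were on average brighter in both, by 0.08 in the low and 0.18 in the high RFI line (log2 median intensity). The fits within lines had no brightness covariate, so agreement between lines cannot tell diet from array brightness. At the methods' cut-offs, 1230 probes differed between diets in the low RFI line alone (2.72%) and 619 in the high RFI line alone (1.37%), while 0 passed a P-BH of 5% in either. Of the 1230, 1050 (85.4%) had the same direction in the high RFI line, against 64.4% of all tested probes, and 243 (19.8%, against 6.03% of all probes) also had a P under 0.05 there, with 4 at that P in the opposite direction. Of the 619, 525 (84.8%) had the same direction in the low RFI line and 154 (24.9%, against 9.94% of all probes) a P under 0.05. The median log2 FC of the 1230 probes was 0.35 in absolute value where they were chosen and 0.13 in that direction in the other line. The effect of diet differed between lines in 0 probes once P-BH was held to 5% (limma, smallest P-BH = 1.0), and 1071 probes had an unadjusted P under 0.05, or 2.37% of those tested.

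The scan days gave a similar picture, with the same limit. HF arrays were on average brighter on both, by 0.16 on the first and 0.10 on the second day, and these fits had no brightness covariate. On the first day alone 864 probes (1.91%) met the methods' cut-offs and on the second 955 (2.11%), and 0 and 1 passed a P-BH of 5%. Of the 864, 746 (86.3%) had the same direction on the second day, against 62.8% of all probes. The effect of diet differed between days in 0 probes by P-BH and in 1216 of the 45236 tested probes by an unadjusted P under 0.05 (limma).

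Of the key genes of liver metabolism chosen whatever their result, 38 of 40 were tested, and those given next had a P-BH over 5%. Log2 FC were -0.12 for CD36 (P = 0.227), 0.04 for FABP1 (P = 0.772), -0.10 for PLIN2 (P = 0.471), -0.30 for CIDEC (P = 0.0212) and -0.14 for APOA5 (P = 0.333). They were 0.09 for APOA4 (P = 0.879), -0.17 for TXNIP (P = 0.0631), -0.12 for CYP8B1 (P = 0.524) and 0.06 for the bile salt export pump ABCB11 (P = 0.499). Among drug-metabolizing enzymes, CYP1A2 gave 0.28 (P = 0.212) and CYP2E1 -0.19 (P = 0.0165). The acute phase genes SAA3, HP and CRP gave 0.38, -0.13 and 0.11 (P = 0.23, 0.0212 and 0.682), and IGF1 and IGFBP1 -0.03 and 0.17 (P = 0.555 and 0.122).

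The genes whose levels followed the leading transcripts most closely were sought among named genes, after removal of line means over the 48 arrays. For SREBF1, they were SLC2A4 (Pearson r = 0.66), PPIP5K2 (0.62) and GCOM1 (0.57). For SLC2A4, they were DOCK6 (0.67), CC2D1A (0.66) and GLDC (0.63), and for FNDC1, NID1 (0.68), LYST (0.67) and CBX6 (0.59). These values share the arrays and the diet contrast and are given as a description.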

How the data were processed

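The authors deposited, for each of 48 arrays, scanner output with a background-subtracted intensity per spot, not normalized between arrays, and a table of log2 values centred on the array median. The deposited log2 values were used as an alternative (37379 probes, found to equal the log2 median signal minus a constant). Control spots were left out, 483 outlier spots were set to missing, 0 spots were saturated, and tests took the 45236 of 60305 probes that were well above background on 12 or more arrays. Precision is limited by how many arrays there are. P measures the spread between pigs together with that between arrays, since each pig was read on its own array.

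Gene names came from the scanner output and reference tables of symbols and accessions (27170 probes, 12831 genes), and no genome was used. Diet effects (HF minus LF, line as covariate) were fitted with limma 3.58.1 in R 4.3.3 over all tested probes. The study's methods fitted an ANOVA, which was an alternative. Single values were compared with permutation tests (scipy).

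Named were, at a P-BH of 5%, 12 genes that rose and 12 that fell by the largest log2 FC (probe of smallest P, well above background on 24 or more arrays), up to 4 genes of smallest P per list, and 40 key genes. The members, lists and rules were chosen with earlier results of these data known. On simulated data of 24 against 24 arrays, a P-BH of 5% recovered 78.5% of 200 probes given an FC of 1.41 and 94% of 200 given an FC of 2. The simulated noise was drawn independently for each probe and array, without slide or brightness effects. These shares may therefore not hold for the real arrays. Some genes that these rules name, and the sequence of 1 probe, are not reported here.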

Additional observations from a re-analysis of the deposited data

How the results depend on the processing

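The 222 probes at a P-BH of 5% became 37 with array brightness as a covariate, 60 without a filter on dim probes (a larger number of probes tested), 0 and 0 in the low and high RFI lines alone and 0 and 1 on the scan days alone (fewer pigs). The slide alternatives, chosen after seeing the data, gave 10, 8, 409, 15, 48 and 24 without slides 1 to 6, and 33 without slide 1 with brightness as a covariate. Other settings (75th percentile, quantile and normexp normalization, deposited values, outliers kept, slide or scan day as a block, interaction term, the methods' ANOVA, all-array filter) gave 195 to 324. At the methods' cut-offs, 2121 became 1230, 619, 864 and 955 in the lines and days alone and 1158 without slide 2. The interaction of line and diet gave 0 probes in the 10 alternatives tried for it.

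The brightness difference of 0.13 had P = 0.0065 after removal of slide means (permutation test over all arrays, not within slides). The 24 genes with the largest changes kept their direction in every full-data setting in which they had a value, except COL11A1, which was -0.013 with normexp. The deposited values held 22 of the 24 and the all-array filter 18. Genes that were not called and changed sign were CYP8B1 (0.0016), FGF21 (0.096) and FABP1 (-0.105) on the first scan day, APOA4 (-0.181) and CRP (-0.255) on the second, APOA4 (-0.0756) with brightness as a covariate, FGF21 (0.0152) with the deposited values and IGF1 (0.0049) with normexp. The causes were not tested. No paired analysis was possible because the labels give no replicate numbers that pair single pigs across groups, and the shared slide, used as a block instead, gave 324 probes.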
